A study of Gallus gallus with 4 samples.

Results

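The genes that make, load, recapture and degrade acetylcholine, and the muscarinic receptors that respond to it, were followed across the 4 arrays of the recovery study. The members were the probe sets that the platform's annotation pairs with CHAT, SLC18A3, SLC5A7, ACHE, CHRM2, CHRM3, CHRM4 and CHRM5. All 8 genes were present, with 19 of the 38535 probe sets and 8 of the 13009 gene measures. Each array carried pooled RNA from the retina, retinal pigment epithelium (RPE) and choroid, taken from right eyes of 5 male Leghorn/New Hampshire chicks. The control pool came from chicks without a lens at post-hatch day 11. The FD 0 hr pool came from chicks of the same age at the end of form deprivation (FD), in which a translucent occluder over the right eye blurs vision and the eye elongates. The FD 6 hr and FD 24 hr pools came from form-deprived chicks after 6 and 24 hr of unobstructed vision, at post-hatch days 11 and 12. The protocol gives 10 days of occlusion and the sample characteristics give 7 days. Below, FD 0 hr is called the deprived array, and FD 6 hr and FD 24 hr the 6 h and 24 h recovery arrays. Where 4 values follow each other, they run from control through deprived to 6 h and 24 h. The figures carry the original names.

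Acetylcholine is made from choline and acetyl-CoA by choline acetyltransferase, packed into synaptic vesicles, released, and split by acetylcholinesterase, after which the choline is taken up again. In the retina the starburst amacrine cells are the classical source, and they sit in mirror populations on both sides of the inner plexiform layer. Muscarinic receptors are G protein coupled receptors found on retinal neurons, on the RPE and on smooth muscle and vessels of the choroid, and blockers of these receptors such as atropine slow the growth of myopic eyes in chicks and in children.

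Values are log2 expression after the authors' Robust Multichip Average (RMA), with 1 array per group. There was no replicate array, so no test and no p-value is given, and every difference compares 2 pools. A difference of 1 on the log2 scale, a doubling, is used to count genes. Genes with a mean over the 4 arrays at or below 6.28, a value that 60% of probe sets do not exceed on average, are called dim. By this limit 7 of the 8 cholinergic genes were dim and SLC18A3 was not, and 4 of their 19 probe sets lay above it. ACHE was dim by the median over its probe sets, whose means ran from 4.105 to 11.62. As a yardstick, differences of the probe sets of the same gene had a pooled SD over 2577 genes of 0.44 for deprived minus control, 0.30 for 6 h minus deprived, 0.27 for 24 h minus 6 h, 0.38 for 24 h minus deprived and 0.32 for 24 h minus control. Only probe sets above the dim limit entered this SD, so it was not measured at the level of the dim members. This is a spread between probe sets on the same arrays and not between chicks.

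The arrays differed in their controls and in sex-linked genes. Hybridisation controls lay within 0.355 of each other between the control and deprived arrays and within 0.255 between the 6 h and 24 h arrays, but the 6 h array was lower than the deprived array by 0.585 to 2.86. In differences of the 6 h or 24 h array from the deprived or control array, recovery cannot be told apart from this offset. The gap between the 3′ and 5′ probe sets of β-actin was 3.72 on the deprived array against 2.39 to 2.85 on the others. With 1 array per group, form deprivation cannot be told apart from this gap in differences that use the deprived array. The 24 h pool was at post-hatch day 12 and the others at day 11. In differences of the 24 h array, recovery cannot be told apart from this difference in age. HINTW, which lies on the W chromosome that only female birds carry, read 9.36 for the control pool but 5.34 to 5.52 for the rest, and the 269 Z-linked genes above the dim limit had a median of 0.46 for deprived minus control. A difference in sex between the pools, at odds with labels that give all chicks as male, cannot be told apart from form deprivation in differences from control. Of the 8 cholinergic genes 7 lie, in the RefSeq gene annotation, on chromosomes other than Z and W, and ACHE is unplaced. The labels of RPE and retina are borne by RPE65, an RPE enzyme, at 12.75 to 13.32, and GAD1, which makes GABA in amacrine and horizontal cells, at 12.02 to 12.67. For the choroid the values say less. CDH5, a cadherin of vessels, read 7.90 to 9.44, but only 2 of the 6 endothelial markers measured were above the dim limit.

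Summarised over their probe sets, the cholinergic genes differed little between the 4 arrays, whereas 1 of the ACHE probe sets differed more than nearly all others on the arrays. None of the 8 genes was higher by at least 1 after deprivation than without and none was lower, beside 2.54% and 2.32% of all gene measures. This count rests on the median over probe sets, since CHAT was at 1.01 with _s_at probe sets left out and ACHE at -3.40 by its brightest probe set. Their median difference was -0.17, with 3 genes above 0 and 5 below, against a median of 0.00 over all genes, of which 49.4% were above 0 and 49.5% below. The range over the 4 arrays was 0.60 for CHAT, 0.49 for CHRM3 and 0.18 to 0.23 for the other 6 genes.

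**Figure D1:**
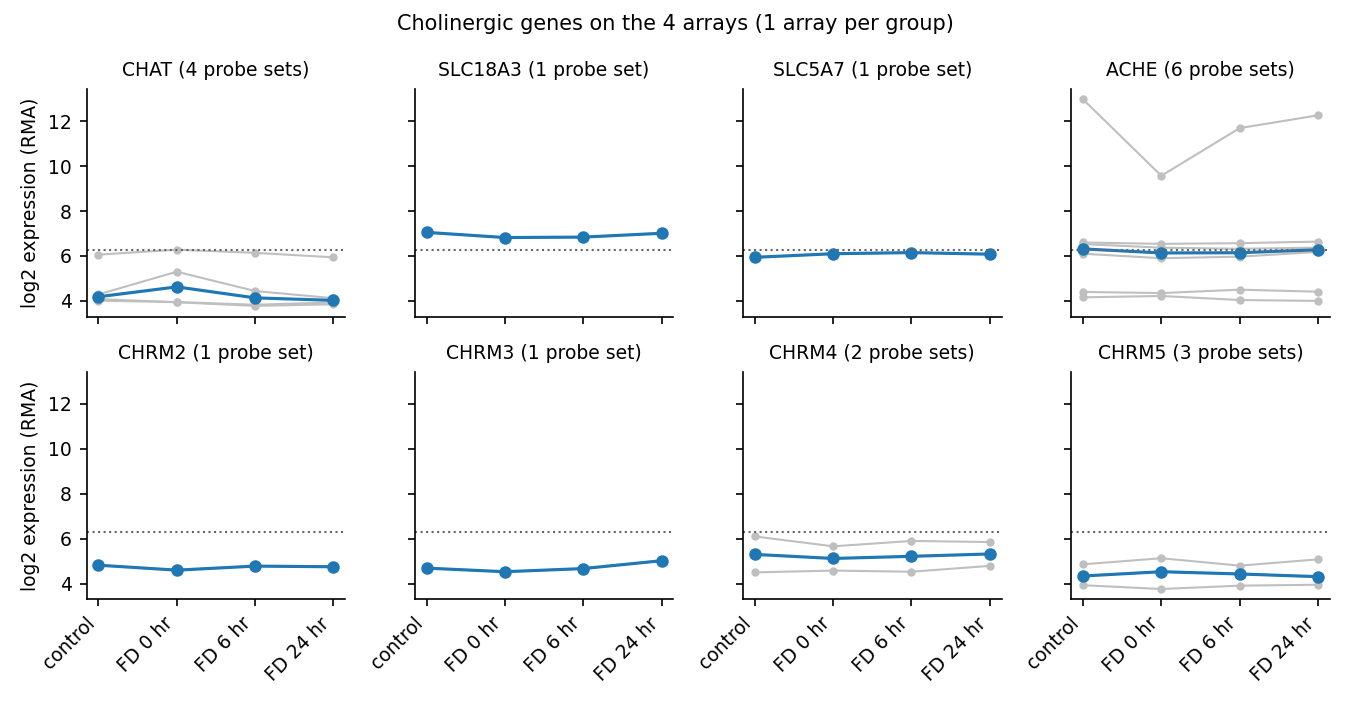
Log2 expression (y axis) of the 8 cholinergic genes on the 4 arrays (x axis), 1 array per group and hence without error bars. Blue points are the median over the probe sets of a gene, grey points the single probe sets, and the dotted line is the dim limit of 6.28. All blue lines are nearly flat, with the widest range, 0.60, for CHAT, and only 1 grey line, of ACHE, moves by more than 3.

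CHAT encodes choline acetyltransferase, the enzyme that makes acetylcholine and the usual marker of cholinergic neurons. Its median over 4 probe sets was 4.185 on the control array, 4.625 after deprivation, 4.135 at 6 h and 4.025 at 24 h. It was therefore highest after deprivation, by 0.44 over control, and lowest at 24 h, by 0.60 under deprived. This shape followed 1 of the probe sets, which stood at 4.29, 5.30, 4.44 and 4.12 in the same order of arrays. The other 3 CHAT probe sets differed between deprived and control by -0.14, -0.06 and 0.22. From deprived to 24 h all 4 CHAT probe sets were lower, with differences of -1.18 to -0.02. All 4 were dim on average, and the brightest of them stood at 6.06, 6.28, 6.14 and 5.94.

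SLC18A3 encodes the vesicular acetylcholine transporter, which loads the transmitter into synaptic vesicles. In vertebrates its gene lies within or beside the CHAT gene in what is called the cholinergic gene locus, and in the RefSeq table no protein-coding gene separates the pair. SLC18A3 was measured by 1 probe set and stood at 7.05 on the control array, 6.82 after deprivation, 6.84 at 6 h and 7.01 at 24 h. The deprived and 6 h arrays were thus lower than the control and 24 h arrays, by at most 0.23. By its median CHAT went the other way, at 0.44 against -0.23 of SLC18A3 for deprived minus control, but 2 of its 4 probe sets were lower too. No SLC18A3 difference exceeded the probe set SD of its comparison.

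SLC5A7 encodes the high-affinity choline transporter, which returns choline to the nerve ending and limits the rate of synthesis. Its single probe set stood at 5.94 on the control array, 6.10 after deprivation, 6.15 at 6 h and 6.08 at 24 h. The control array was lowest and the 3 form-deprived arrays lay within 0.07 of each other. All 5 differences were smaller than the probe set SD.

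ACHE encodes acetylcholinesterase, which ends the signal by splitting acetylcholine, and it had the most probe sets of the 8 genes. The brightest ACHE probe set, whose name ends in _s_at, stood at 12.97 on the control array, 9.57 after deprivation, 11.69 at 6 h and 12.26 at 24 h. It was thus lowest at the end of form deprivation, 10.6-fold below control, and higher on each recovery array, with 24 h still 0.71 below control on the log2 scale. For deprived minus control its difference of -3.40 was among the 3 lowest of all 38535 probe sets, of which 2.6% were lower by at least 1. Its differences of 2.12 for 6 h minus deprived and 2.69 for 24 h minus deprived were each among the 2 highest of all probe sets. Both differences cross the offset of the hybridisation controls. Like the difference from control, they also use the deprived array with its wider β-actin gap. Of the 401 probe sets whose mean was at least as high, 15 were lower by at least 1 after deprivation, which is 3.74%, and 15 were higher.

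The other 5 ACHE probe sets did not share this profile. They ranged from 4.00 to 6.64 over the 4 arrays and differed between deprived and control by -0.20 to 0.06, between 6 h and deprived by -0.18 to 0.15 and between 24 h and deprived by -0.22 to 0.28. The median over all 6 was accordingly flat, at 6.315, 6.135, 6.145 and 6.275 in order of the arrays. The ending _s_at means that probes can match more than 1 transcript, and another ACHE probe set, at 5.90 to 6.18, has it too. Besides the bright one, only the probe sets labelled A1 were above the dim limit, with means of 6.40 and 6.59. That label marks the strand opposite to S1. Which of the 6 reads the main ACHE transcript is not given in the sources used here. Among the 7334 genes with more than 1 probe set, the range of deprived minus control over the probe sets had a median of 0.41. For ACHE it was 3.46, and 3 genes, ACHE included, had a range at least as wide. Of the 6 probe sets 5 were lower after deprivation than without, with -0.20 as the lowest value besides that of the bright one. Of all gene measures, which are not single probe sets, 49.5% were lower, and the share of all probe sets below 0 was not counted. The ACHE value was below 0 for deprived minus control and above 0 for 6 h and 24 h minus deprived under every summary and filter tried. Its size, however, ran from -3.40 to -0.06 for deprived minus control with the choice of probe sets. For 6 h minus deprived it ran from 0.0063 to 2.12. All settings draw on the same 6 probe sets and arrays, so the shared sign is no independent support.

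**Figure D2:**
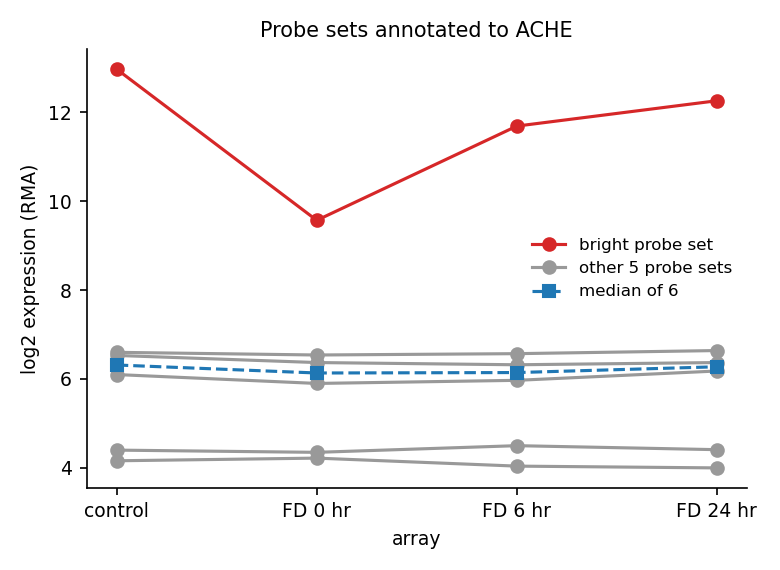
Log2 expression (y axis) of the 6 probe sets annotated to ACHE on the 4 arrays (x axis), 1 array per group, with the bright probe set in red, the other 5 in grey and the median of all 6 as a dashed blue line. The red line runs from 12.97 on the control array to 9.57 after deprivation and stands at 12.26 at 24 h, while the grey lines stay between 4.00 and 6.64.

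CHRM2 and CHRM4 encode the muscarinic receptors M2 and M4, which couple to inhibitory G proteins of the Gi family and lower cyclic AMP. CHRM2 stood at 4.82 on the control array, 4.60 after deprivation, 4.78 at 6 h and 4.75 at 24 h by its single probe set. CHRM4 stood at 5.30, 5.12, 5.215 and 5.32 in the same order as the median of a pair of probe sets. Both were lowest after deprivation, by 0.22 and 0.18 under control, which is less than the probe set SD of 0.44. The CHRM4 probe sets did not go one way. The S1 probe set was lower after deprivation than without, at 5.66 against 6.10, and its A1 partner was at 4.58 against 4.50. The labels S1 and A1 mark opposite strands of one target sequence, and which of them reads the CHRM4 transcript is not given in the sources used here.

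CHRM3 and CHRM5 encode the receptors M3 and M5, which couple to Gq and raise calcium through phospholipase C, and M3 drives contraction of smooth muscle. CHRM3 stood at 4.69 on the control array, 4.53 after deprivation, 4.67 at 6 h and 5.02 at 24 h. Its 24 h array was the highest, by 0.33 over control, 0.49 over deprived and 0.35 over 6 h, and these 3 differences exceed the probe set SD of their comparisons. The gene was dim, at a level where that SD was not taken, and had 1 probe set, so that no other probe set bears on the value. CHRM5 stood at 4.34, 4.53, 4.43 and 4.31 in order of the arrays, which are the values of its A1 probe set, the middle one of 3. With A1 probe sets left out, CHRM5 was at 0.05 instead of 0.19 for deprived minus control. For 24 h minus 6 h it was then at 0.16 instead of -0.12. The 3 CHRM5 probe sets differed between deprived and control by -0.17 to 0.27. No difference of the CHRM5 median exceeds the probe set SD, whereas 1 of its probe sets, at -0.33 for 6 h minus deprived and 0.28 for 24 h minus 6 h, does in both steps.

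Across the steps of the study the picture for the 8 genes stayed the same. Over the first 6 hr of recovery their median difference was 0.035, with 6 genes above 0 and 2 below and none past 1 in either direction, beside 0.415% of all gene measures higher and 0.323% lower. From 6 h to 24 h the median was 0.04, with 4 genes above 0 and 4 below. None was past 1, beside 0.169% higher and 0.5% lower. At 24 h against deprived the median was 0.145, and none was past 1, beside 0.884% and 1.37% of all gene measures. At 24 h against control the median was -0.035, and none was past 1, beside 0.53% and 0.799%. In each of these 5 comparisons the median of all genes lay between -0.015 and 0.00. Comparisons that share the deprived or the control array are not independent of each other. With so few measures past 1 among all genes, 0 of 8 does not set the cholinergic genes apart.

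On the level of single probe sets, 2 of the 19 had a range over the 4 arrays above 0.5, the bright ACHE probe set at 3.40 and 1 of the CHAT probe sets at 1.18. The other 17 had ranges of 0.10 to 0.49. The share of all probe sets with a range above 0.5 was not counted, so 2 of 19 cannot be called many or few. Of the 6084 genes above the dim limit, 2813 had a range of at least 0.5. For deprived minus control the ACHE probe set was lower by at least 1, beside 2.6% of all probe sets, and the CHAT probe set was higher by at least 1, beside 2.32%. Over the first 6 h of recovery the same ACHE probe set was higher by at least 1, beside 0.413% of all probe sets, and none of the 19 was lower by 1, beside 0.475%. From 6 h to 24 h none was past 1, beside 0.262% higher and 0.467% lower. Over the 24 h the ACHE probe set was higher by at least 1, beside 1.12%, and the CHAT probe set was lower by at least 1, beside 1.29%. Against control none was past 1 at 24 h, beside 0.698% higher and 0.89% lower. Of the genes, CHAT exceeded the probe set SD for deprived minus control, 6 h minus deprived and 24 h minus deprived, CHRM3 for the 3 differences that involve 24 h, and no other member in any comparison. The share of all gene measures past this SD was not counted. CHAT lay outside the 5th to 95th percentile of all gene measures only for 6 h minus deprived, which spanned -0.40 to 0.45. CHRM3 lay outside it only for 24 h minus 6 h, which spanned -0.45 to 0.33. Between 6 h and 24 h, whose hybridisation controls were alike but whose chicks differed in age, CHRM3 alone exceeded the probe set SD, by 1 dim probe set.

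The genes whose profile over the 4 arrays was most like that of each cholinergic gene were sought among the 6084 genes above the dim limit, by the root mean square distance between profiles centred on their own mean. For CHAT they were ECHDC3, SERTAD4 and AEBP2 at distances of 0.03 each, and 99 genes lay within 0.1. For CHRM3 they were HES4, RIMS3 and KCNV2 at 0.02 to 0.03, with 219 genes within 0.1. KCNV2 is a potassium channel subunit of photoreceptors. For SLC18A3 they were RUSC1, RTN4R and ISL2 at 0.01 each, and ISL2, a transcription factor of ganglion cells, stood at 7.05, 6.82, 6.81 and 7.01. For SLC5A7 they were CTSH, SKP1 and RANBP1, for CHRM2 CRYBB2, LPIN2 and RBM23, for CHRM4 POMT2, MESP1 and BMP4, for CHRM5 ZCRB1, POMGNT2 and RTN4, and for the ACHE median ANKRD16, GLYCTK and PES1, all at 0.02 or less. For these 5 genes and SLC18A3 between 801 and 1071 genes lay within 0.1, since a nearly flat profile is shared by many genes, so that these names carry little. Among the members themselves SLC18A3 and ACHE were nearest, at 0.02, and CHAT and CHRM3 farthest apart, at 0.39.

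The bright ACHE probe set, picked out after its values were seen, was compared in the same way. The nearest genes were EBF3, a transcription factor of neurons, at a distance of 0.32, ERBB4, a neuregulin receptor, at 0.38, NFASC, an adhesion protein of axons, at 0.39, PCDHGA2, a protocadherin, at 0.40, and TFAP2B, a transcription factor of amacrine cells, at 0.41. EBF3 stood at 9.21 on the control array, 6.68 after deprivation, 8.18 at 6 h and 8.90 at 24 h. TFAP2B stood at 10.02, 7.62, 8.82 and 9.37 in the same order. For deprived minus control the 5 genes differed by -2.71 to -2.30, against -3.40 for the ACHE probe set. Of the 5 genes only TFAP2B was in the marker lists used here. The next nearest genes, PFKL at 0.43 and PRPF8 at 0.46, were in none of them either. The likeness is over 4 arrays only.

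**Figure D3:**
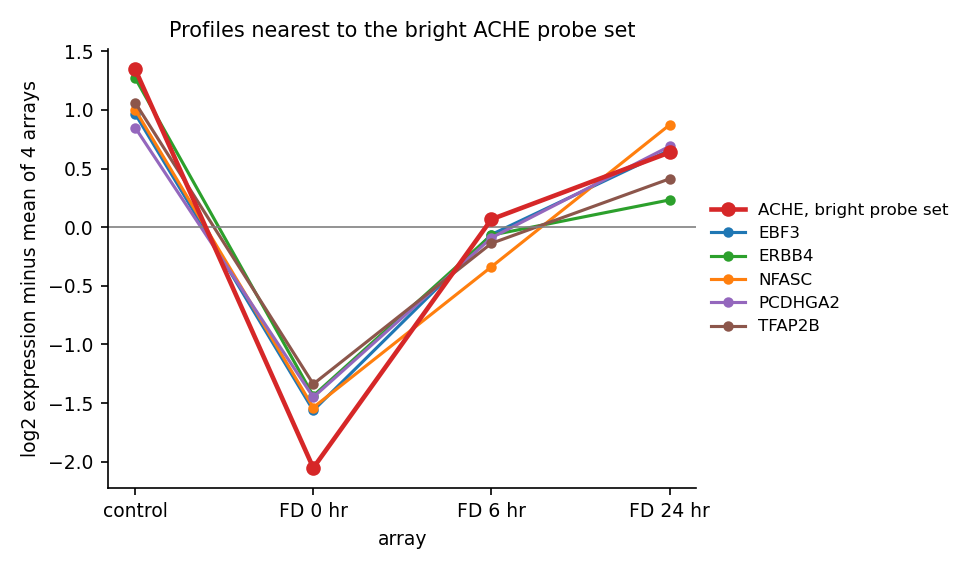
Log2 expression minus the mean of the 4 arrays (y axis) on each array (x axis) for the bright ACHE probe set in red and the 5 genes with the nearest profiles. All 6 lines are lowest after deprivation and highest on the control array, and the ACHE probe set has the deepest trough.

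Markers of amacrine cells were also mostly lowest on the deprived array. Of 12 markers other than those of starburst cells 11 were measured, and 9 of them were lower after deprivation than without, 5 by at least 1, with a median of -0.99. Of all gene measures 49.5% were lower and 2.32% lower by at least 1. TFAP2B differed by -2.40, SLC6A9, the glycine transporter, by -1.93, CALB2, which encodes calretinin, by -1.315, and PAX6, a transcription factor of the inner retina, by -1.05. From deprived to 24 h 9 of the 11 were higher, with a median of 0.70, beside 48.1% of all gene measures higher and a median of -0.01. The log2 of their summed level was 14.14 on the control array, 13.11 after deprivation, 13.71 at 6 h and 13.90 at 24 h, and 8 of the 11 were above the dim limit. The others were TH, DDC and SLC18A2, all of the dopamine pathway. Markers of other retinal cells were mostly lower too for deprived minus control. Of the ganglion cell markers 5 of 6 measured were below 0, among them NEFM, a neurofilament, at -1.82 and THY1, a surface protein, at -1.77, while SNCG, a synuclein, was at 0.45. Of the photoreceptor markers 4 of 5 were below 0, with a median of -0.60 and OPN1LW, the red cone opsin, at -2.31, and PDE6C, a cone phosphodiesterase, was at 0.79. All 4 Müller glia markers were below 0, with a median of -0.315. Of 2 bipolar cell markers VSX1, a transcription factor, was at -0.67 and TRPM1, a channel, at 0.40. The RPE and vessel markers were not mostly lower. Of the 8 RPE markers 4 were above 0 and 3 below, with a median of 0.005. Of the 6 endothelial markers 4 were above 0 and 2 below, with a median of 0.07. The log2 of the summed level of the ganglion cell markers was 12.34, 11.61, 11.84 and 12.35. The β-actin gap of 3.72 was also widest on the deprived array. The part of these cells and of RNA quality in the ACHE value was not tested. In pooled tissue fewer cells of a type and less RNA per cell cannot be told apart.

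The starburst amacrine markers apart from the cholinergic genes, a list known from mouse, did not differ as 1 group. Of 6 listed 5 were measured, and 3 were below 0 and 2 above for deprived minus control, with a median of -0.07 and 1 lower by at least 1, beside 2.32% of all gene measures. PLXNA2, a semaphorin receptor, stood at 9.15 on the control array, 7.365 after deprivation, 8.145 at 6 h and 8.64 at 24 h, and its 4 probe sets differed by -2.66 to -0.62 for deprived minus control. ISL1, a transcription factor also of ganglion and bipolar cells, stood at 9.955, 9.66, 9.96 and 10.56. It was thus highest at 24 h, by 0.90 over deprived, and it is Z-linked, as are MEGF10 and SEMA6A of this list. SOX2, which Müller glia also express, was lowest at 24 h, at 7.10 against 7.59 on the control array. The log2 of the summed level of the 5 markers was 10.82, 10.25, 10.55 and 11.04 in order of the arrays.

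**Figure D4:**
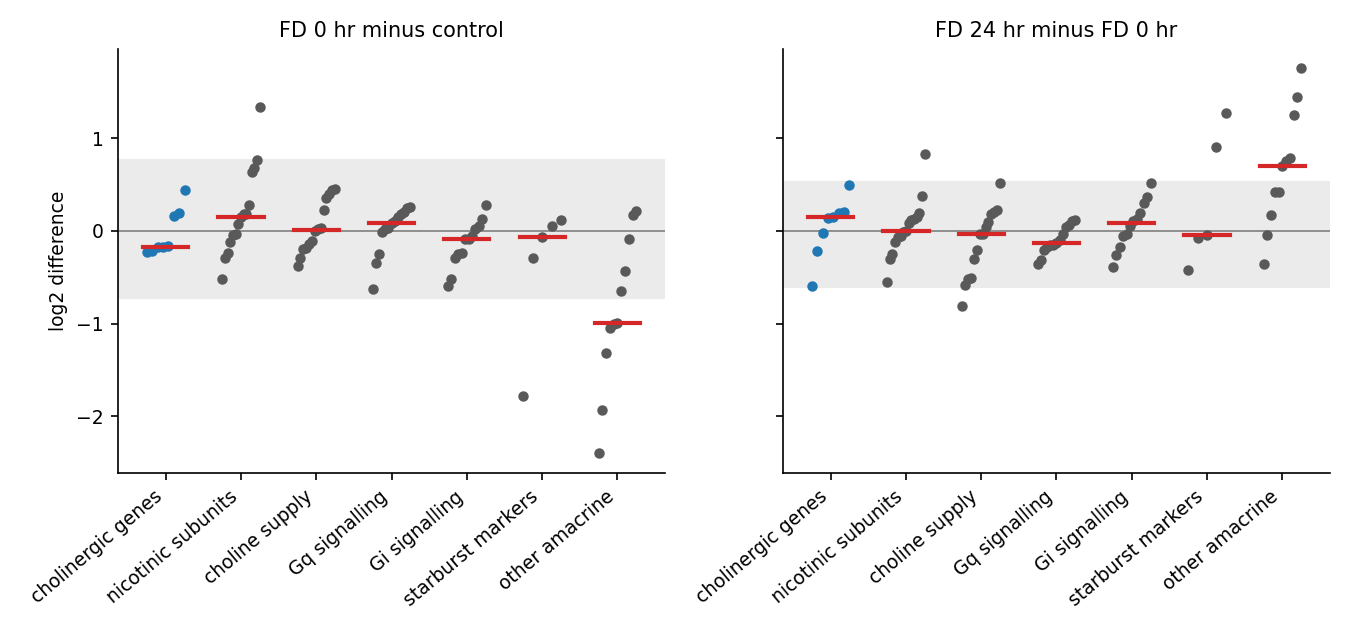
Log2 differences (y axis) of the genes of 7 lists (x axis) for deprived minus control on the left and 24 h minus deprived on the right, each point 1 gene and each red bar the median of a list. The grey band spans the 5th to 95th percentile of all gene measures, -0.72 to 0.76 on the left. The cholinergic genes, in blue, lie within the band on the left, with a median of -0.17, and the other amacrine markers reach below it, with a median of -0.99.

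Nicotinic receptors, the ion channels opened by acetylcholine, held the cholinergic receptor genes with the widest differences. Of 17 subunits listed 15 were measured and 8 were above the dim limit. For deprived minus control 9 were above 0 and 6 below, with a median of 0.145 and 1 higher by at least 1, beside 49.4% of all gene measures above 0 and 2.54% higher by at least 1. CHRNA6 stood at 8.98 on the control array, 10.31 after deprivation, 10.02 at 6 h and 10.01 at 24 h, so that the 3 form-deprived arrays were all above control, by 1.03 to 1.33. CHRNA8, a subunit described in birds and expressed in the chick retina, stood at 10.60, 11.28, 11.02 and 11.22. CHRNB3 stood at 8.70, 8.98, 9.39 and 9.81, with 24 h the highest, by 1.11 over control and 0.83 over deprived. CHRNA6, CHRNA8 and CHRNB3 are the 3 Z-linked subunits of the list, and their differences from control cannot be told apart from the shift of Z-linked genes.

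Of the 12 subunits not on the Z chromosome none was higher by 1 after deprivation, beside 2.54% of all gene measures, and their median was 0.02. CHRNB4, which is one of them, stood at 7.935 on the control array, 8.70 after deprivation, 8.35 at 6 h and 8.15 at 24 h, and its probe sets were higher after deprivation by 0.70 and 0.83. Among the form-deprived arrays, which share the low HINTW level, CHRNB3 was higher at 6 h than after deprivation by 0.41 and at 24 h than at 6 h by 0.42, and CHRNB4 was lower at the same steps by 0.35 and 0.20. The first of these steps crosses the offset of the hybridisation controls and uses the deprived array with its wider β-actin gap. The subunits of muscle receptors CHRND and CHRNG were dim, at 4.54 to 5.11.

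**Figure D5:**
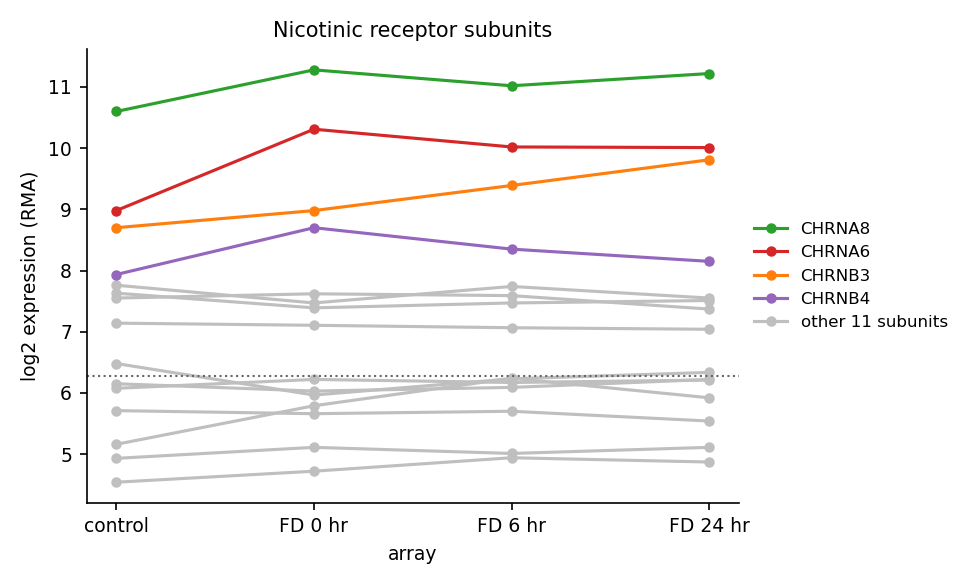
Log2 expression (y axis) of 15 nicotinic receptor subunits on the 4 arrays (x axis), 1 array per group, with 4 named subunits in colour, the other 11 in grey and the dim limit of 6.28 as a dotted line. CHRNA6 is at 8.98 on the control array and at 10.01 to 10.31 on the others, and CHRNB3 is higher on each recovery array than after deprivation.

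The genes that supply choline or hold cholinesterase in place showed no common direction. Of 17 listed 14 were measured, with 7 above 0 and 6 below for deprived minus control, a median of 0.01 and none past 1. Among all gene measures 49.4% were above 0 and 49.5% below, and 2.54% were higher and 2.32% lower by at least 1. From 6 h to 24 h 9 were below 0 and 5 above, with a median of -0.105, beside 51.6% and 46.6% of all gene measures. PRIMA1, the membrane anchor of acetylcholinesterase in neurons, stood at 6.49 on the control array, 6.52 after deprivation, 6.17 at 6 h and 7.04 at 24 h. It was highest at 24 h, by 0.87 over 6 h. The bright ACHE probe set was higher by 0.57 over that step, but for 6 h minus deprived PRIMA1 was at -0.35 and the probe set at 2.12, and for deprived minus control they were at 0.03 and -3.40. SLC44A3, a choline transporter-like protein, was at 7.10, 7.54, 7.44 and 6.73, and CHPT1, which makes phosphatidylcholine, at 7.82, 8.04, 8.07 and 7.46. Both were lowest at 24 h.

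Downstream of the receptors, the Gq pathway had 13 of 15 listed genes measured, 9 above 0 and 4 below for deprived minus control, with a median of 0.08 and none past 1. All 9 above 0 were dim. The 3 above the dim limit were lower, GNA11 by -0.25, RGS2 by -0.35 and RGS4 by -0.63. The log2 of the summed level was 10.56 on the control array and 10.20 after deprivation. Of all gene measures 49.4% were above 0 and 49.5% below, and 2.54% were higher and 2.32% lower by at least 1. RGS4, which shortens G protein signals, read 9.55 without deprivation and 8.92, 9.04 and 8.79 on the others, so that all 3 form-deprived arrays were lower than control. The Gi pathway had 12 of 15 measured, 4 above 0 and 8 below, with a median of -0.09 and none past 1. GNAI3, a Gi subunit, read 9.46 without deprivation and 8.86 after deprivation, and its probe sets differed by -0.66 and -0.53. GNAO1, the Go subunit of neurons, was higher by 0.51 at 24 h than after deprivation. CHRM2 and CHRM4, which signal through Gi, were lower after deprivation by 0.22 and 0.18 beside this median.

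Smooth muscle and vessels of the choroid carry muscarinic receptors too. Of 9 smooth muscle markers 7 were measured, with 5 above 0 and 2 below for deprived minus control, and a median of 0.07. Of all gene measures 49.4% were above 0 and 49.5% below. MYH11, a smooth muscle myosin, was higher by 1.71 after deprivation and TAGLN, an actin-binding protein, differed by -1.18, so that these markers did not go one way. The log2 of their summed level was 10.72, 10.78, 10.62 and 10.60 in order of the arrays. MYLK, the myosin light chain kinase, stood at 7.16, 7.545, 7.815 and 8.01. It was highest at 24 h, as CHRM3 was, but lowest on the control array, whereas CHRM3 was lowest after deprivation. For 24 h minus deprived 3 of the 7 markers were above 0 and 4 below, with a median of -0.02, beside 48.1% and 50.6% of all gene measures. The part of smooth muscle in the CHRM3 value was not tested. All 6 measured markers of striated muscle, whose nerve endings also use ACHE, lay between 3.98 and 6.89.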

How the data were processed

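RNA of 5 chicks per group was pooled and hybridised to 1 Affymetrix chicken array for each of 4 groups. The deposited values are log2 expression with 2 decimals, which the authors obtained by RMA in Expression Console. The submitters' processing notes also name MAS5, and per the study's methods the arrays were normalised both by themselves and jointly with those of an earlier form deprivation dataset, with the joint values used in the study. Which of these runs gave the deposited values was not established here. The array medians were 5.73 to 5.74, and the values were used as deposited.

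Of 38535 probe sets, 27178 had 1 gene symbol in the platform's annotation, 177 several and 11180 none. The median over the probe sets of a symbol gave 13009 gene measures, of which 12860 were found in the RefSeq table for GRCg7b by Entrez ID. That table served for names, neighbours and Z linkage only. No test was possible with 1 array per group; precision is limited by the number of arrays. The summaries were run on simulated data in which all probe sets of a gene shifted together. A probe set that moves alone, as for ACHE, was not simulated, so the simulation does not bear on that case.

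The members and lists were chosen with earlier results of these data known. Genes named are the members, up to 4 genes of each list with the widest difference above the dim limit, and the 3 nearest profiles of each member. Further genes were picked after their values were seen: the nearest profiles of the bright ACHE probe set, and CHRND, CHRNG, MEGF10, SEMA6A, TH, SLC18A2, DDC and GAD1 as descriptions of their lists. Alternatives were quantile normalisation, centring, other summaries of probe sets, filters on probe sets, and Pearson correlation for likeness. Python 3.11.15, NumPy 2.4.6, pandas 2.3.3 and Matplotlib 3.10.9 were used.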

Additional observations from a re-analysis of the deposited data

How the results depend on the processing

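No paired analysis was possible because each group had 1 array. Under 8 alternatives the median difference of the cholinergic genes stayed within the probe set SD of its value in all 5 comparisons, from -0.19 to -0.13 for deprived minus control, 0.025 to 0.095 for 6 h minus deprived, -0.025 to 0.12 for 24 h minus 6 h, 0.09 to 0.17 for 24 h minus deprived and -0.055 to 0.0025 for 24 h minus control, so that the sign of the third and of the last depended on the setting. Each main median was itself smaller than the probe set SD of its comparison, so that staying within it was a weak check. For the 4 genes with 1 probe set, other summaries of probe sets could not change the value. Leaving out the bright ACHE probe set or the A1 probe sets was chosen after seeing the data. Of 290 values of single genes 13 moved by more than that SD, all of ACHE, CHAT and CHRM5. Taking only its brightest probe set, ACHE was at -3.40 for deprived minus control and 2.69 for 24 h minus deprived, and with the mean of its probe sets at -0.635 for deprived minus control. With every _s_at probe set left out, CHAT was at 1.01 for deprived minus control and -1.18 for 24 h minus deprived, as a median of fewer probe sets. Without dim probe sets only ACHE and SLC18A3, 2 of the 8 genes, kept a value. By Pearson correlation, run only over the 2813 genes with a range of at least 0.5, 1 of the 3 nearest genes of CHAT was named again and none of those of CHRM3, of which only KCNV2 had that range. The nearest genes of the 6 flat members had smaller ranges and could not be named again by construction. Signal close to the background limits what can be seen of the dim genes.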
